A study of Mus musculus with 6 samples.

Results

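The transcripts of 10 mouse genes of blood clotting were followed across liver, ovary and uterus. They were the fibrinogen chains Fga, Fgb and Fgg, the coagulation factors F2, F5, F7, F9, F10 and F11, and Plg, which encodes plasminogen. The members were chosen by gene name, as every probe that is not a control spot and whose transcript carries one of these symbols. This gave 14 of 55681 probes, and 10 of the 20284 genes with a symbol on the array. F5, F7, F10 and Fga had 2 probes each and the other members had 1, and every probe of a member was printed as 1 spot.

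The samples were immature female CD-1 mice. BHPF (fluorene-9-bisphenol, a bisphenol used to make plastics) was given by gavage in peanut oil at 50 mg/kg body weight per day for 3 days, and control mice received peanut oil. The labels give the mice as 24 days old, also at treatment, whereas the methods place that day at tissue collection, so the age at the first dose is not settled. Total RNA of 3 mice was pooled for each of the 6 combinations of tissue and treatment, and each pool was read on 1 single-colour Agilent array, so that each group is 1 array and the spread between mice was not measured. Therefore no difference between treatments was tested, and the only error available is the spread between spots of the same probe. All arrays lay on 1 slide with the control arrays in the earlier positions, and position and treatment cannot be told apart.

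Clotting factors circulate as inactive precursors. Hepatocytes, the main cells of the liver, secrete nearly all of them, and adult ovary and uterus are not regarded as their source. Factor VII with tissue factor starts the cascade, factors XI, IX and X carry it forward, factor V assists factor X, and thrombin, the active form of the F2 product prothrombin, cuts fibrinogen to fibrin. Plasmin, the active form of plasminogen, dissolves the fibrin again. In the liver these genes are driven by HNF1, HNF4 and C/EBP proteins, and the fibrinogen genes also respond to interleukin-6 in the acute phase.

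The fibrinogen genes lie beside each other on chromosome 3 in the order Fgg, Fga and Fgb, with 1 other annotated gene model, Gm40075, between Fga and Fgb. F7 and F10 are neighbours on chromosome 8, where F11 lies next to Klkb1. The fibrinogen promoters are shown because the chains form 1 protein and yet their transcripts gave different uterus values below. The sequences come from RefSeq for build GRCm38.p6, hold 250 bases before the gene's start and read 5′ to 3′ along the gene. Capitals mark matches on either strand to GTTAAT (the HNF1 core), CTGGGAA (the interleukin-6 responsive element) or TTGCNNAA (C/EBP). Fgg is on the plus strand at chr3:83007474-83007723, Fga on the plus strand at chr3:83025903-83026152 and Fgb on the minus strand at chr3:83049864-83050113.
Fgg: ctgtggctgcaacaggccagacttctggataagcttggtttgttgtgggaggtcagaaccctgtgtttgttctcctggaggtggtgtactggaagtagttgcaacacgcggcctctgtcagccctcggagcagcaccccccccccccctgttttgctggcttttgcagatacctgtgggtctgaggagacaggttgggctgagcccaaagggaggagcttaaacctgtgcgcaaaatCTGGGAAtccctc
Fga: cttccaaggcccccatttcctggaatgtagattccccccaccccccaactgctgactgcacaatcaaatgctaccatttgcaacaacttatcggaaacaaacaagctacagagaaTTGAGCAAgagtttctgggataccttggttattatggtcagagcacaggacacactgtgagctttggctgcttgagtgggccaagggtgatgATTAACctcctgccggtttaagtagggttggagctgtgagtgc
Fgb: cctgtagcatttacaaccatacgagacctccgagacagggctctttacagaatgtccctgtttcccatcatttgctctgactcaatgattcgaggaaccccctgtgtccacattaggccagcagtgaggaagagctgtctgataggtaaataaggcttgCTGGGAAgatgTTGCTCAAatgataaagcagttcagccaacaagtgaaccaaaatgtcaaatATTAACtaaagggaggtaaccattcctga
The Fgb promoter held 1 match each to the HNF1 core, the interleukin-6 element and the C/EBP letters. Fga held the HNF1 core and the C/EBP letters but no interleukin-6 element in this window, and Fgg held only the interleukin-6 element. Of 9 members with a promoter in the table, GTTAAT was found in 2 (Fga and Fgb), CTGGGAA in 3 (F9, Fgb and Fgg) and TTGCNNAA in 4 (F9, F11, Fga and Fgb). The HNF4 letters CAAAGTCC were found in 0 of the 9. Among all 32851 promoters of the table, 6.43% held GTTAAT, 9.1% CTGGGAA, 9.56% TTGCNNAA and 1.20% CAAAGTCC. A match of letters is not evidence of a bound site.

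A level is the log2 of a probe's background-corrected signal minus the 75th percentile of its array, averaged over the probes of a gene. A level of 0 is thus the signal at that percentile, and levels are compared only within a gene, because probes differ in brightness at equal RNA. Between 61.4% and 74.7% of probes were well above background on an array, the 75th percentile lay between 3298 and 7503 intensity units, and no spot was saturated. Probes printed 5 or more times had a median SD between their spots of 0.088 to 0.103 log2 units, which gives a ratio of 2 arrays of a tissue an SD of 0.132 to 0.138.

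The authors' own table of log2 values bears on every uterus result. Its liver and ovary columns each held the scanner values of the array so labelled, less a constant, for at least 99.1% of probes within 0.001. The column headed control uterus matched the BHPF uterus scanner array at 99.1% of 38802 probes and the control uterus array at 0.348%, while the scanner values of the control uterus array were found, again at 99.1%, under the BHPF uterus heading. Which of the 2 labellings is right was not settled by these data. The scanner arrays are used here as labelled, and every statement on the uterus of the form "higher after BHPF" turns its direction under the table's headings.

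All 10 members were well above background on both liver arrays, and all 14 of their probes were. Bulk tissue was measured, so fewer cells of a type and less RNA per cell cannot be told apart in any comparison that follows. On the control ovary array 7 of 10 members were well above background, on the BHPF ovary array 6 and on the control uterus array 6. On the BHPF uterus array all 10 were. Liver was the highest tissue for every member.

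Fgb encodes the fibrinogen β chain. Its level was 5.64 in control liver and 5.45 in BHPF liver, −1.26 in control ovary and −1.25 in BHPF ovary, and −2.53 in control uterus against 2.01 in BHPF uterus. Fgg, the γ chain, had 4.97 and 5.05 in control and BHPF liver, −2.15 and −2.02 in the ovaries, and −3.98 and 1.06 in the uteri. The ovary arrays of both genes lay between the 2 uterus arrays. Fga, the α chain, had 4.48 and 4.24 in control and BHPF liver and −3.00 in BHPF uterus. On the control uterus array (−7.71) and both ovary arrays (−7.04 and −6.96) Fga was not well above background with either probe. Control liver exceeded control uterus 288-fold in Fgb and 494-fold in Fgg, and at least 2767-fold and 1534-fold in the first and second probes of Fga.

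F2, which encodes prothrombin, had 4.56 in control liver and 4.47 in BHPF liver, −2.59 and −2.50 in control and BHPF ovary, and −4.09 and 0.44 in control and BHPF uterus. Plg had 4.91 and 4.82 in the livers, −2.86 and −2.65 in the ovaries, and −4.08 and 0.92 in the uteri. Both genes followed the order seen in Fgb and Fgg, with the control uterus lowest and the BHPF uterus highest outside the liver. 

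F7 starts the extrinsic pathway. It had 3.74 on both liver arrays, −5.02 in control ovary, −5.83 in BHPF ovary, −6.85 in control uterus and −3.54 in BHPF uterus, and neither probe was well above background on the BHPF ovary or control uterus array. F9, the factor lacking in haemophilia B, had 3.23 and 3.12 in control and BHPF liver and −4.64 in BHPF uterus. F11, which activates factor IX, had 3.66 and 3.26 in control and BHPF liver and −3.22 in BHPF uterus. Both F9 and F11 were not well above background in either ovary array (−6.49 and −6.64 in F9, −6.40 and −6.16 in F11) or in control uterus (−7.14 and −7.46). Apart from F7 in the control ovary, these 3 genes and Fga were thus measured above background only in the livers and the BHPF uterus.

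F5 and F10 did not share this pattern. F5, the cofactor of factor X, had 4.19 and 4.20 in control and BHPF liver, −1.66 and −1.73 in the ovaries, and 0.31 and 0.56 in the uteri. It was well above background on all 6 arrays, and both uteri were above both ovaries. The probes of F10 disagreed. Its first probe had 4.51 and 4.49 in control and BHPF liver, −2.80 and −3.33 in the ovaries, and −2.39 and −0.35 in the uteri. Its second probe, designed to another transcript, was bright everywhere, with 4.12 and 4.40 in the livers, 3.38 and 3.45 in the ovaries, and 3.65 and 3.72 in the uteri. Control liver exceeded control uterus 119-fold with the first probe and 1.38-fold with the second.

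**Figure D1:**
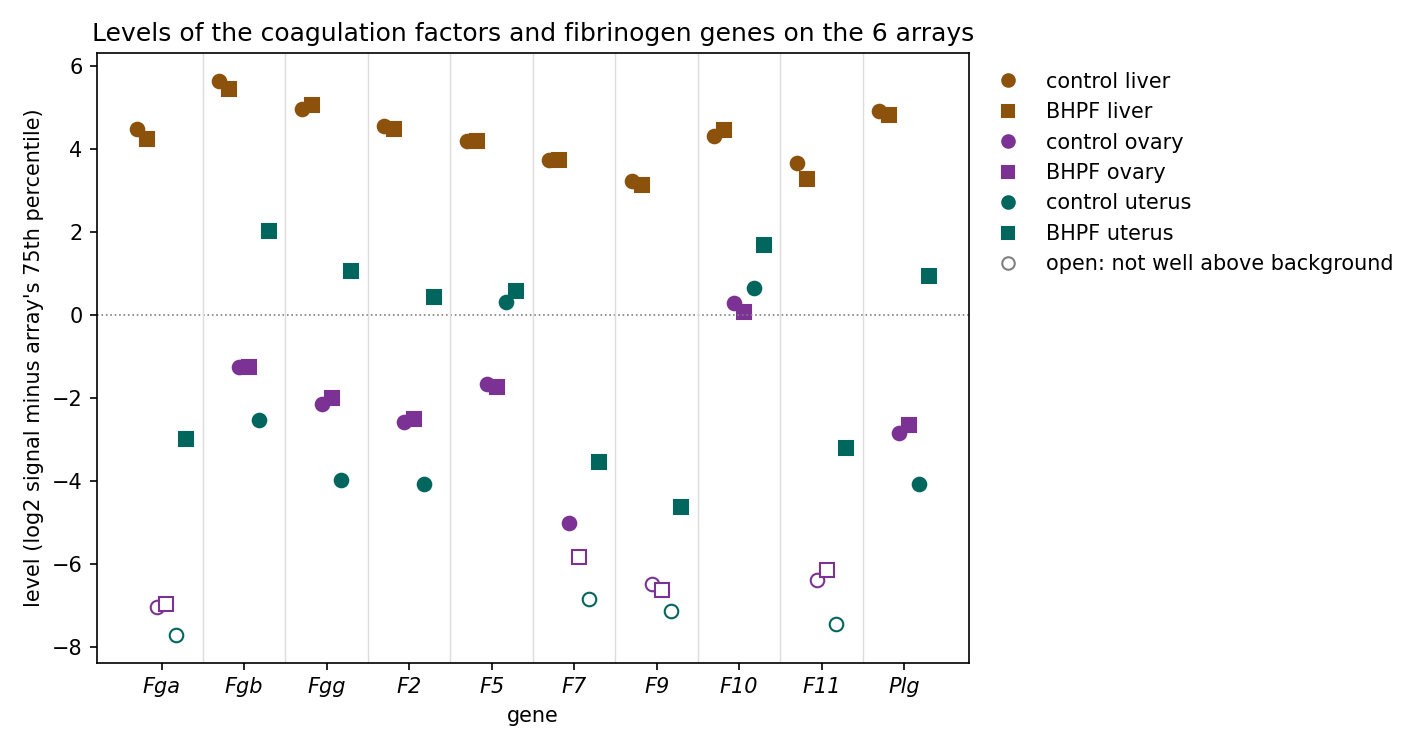
Level of each gene (log2 signal minus the array's 75th percentile, mean over its probes) on the 6 arrays, 1 pool of 3 mice each, with circles for control and squares for BHPF; open marks are not well above background. All 10 genes are highest in liver, and in 9 of them the BHPF uterus lies at least 2-fold above the control uterus.

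In the uterus, 9 of the 10 members were at least 2-fold higher on the BHPF array than on the control array and 0 were 2-fold lower. Over all 16200 genes that either or both uterus arrays measured above background, the share higher by 2-fold or more was 2.36% and the share lower by as much was 1.24%. The median log2 ratio of the members, which lies between a pair of bounds, was 3.42, and that of all genes was 0.01. Fgg was 32.7-fold, Plg 32.2-fold, Fgb 23.2-fold and F2 23.1-fold higher on the BHPF array, and these 4 were well above background on both uterus arrays. Their log2 ratios of 4.53 to 5.03 compare with a spot SD of 0.138 for such a ratio. 

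For Fga, F11, F7 and F9 the control uterus gave only a bound, taken for each probe against the higher of its own signal and the lowest signal well above background on that array, and averaged over the probes. Fga was at least 11.51-fold, F11 at least 9.90-fold, F7 at least 6.46-fold and F9 at least 3.70-fold higher in the BHPF uterus. The probes of Fga gave at least 11.8-fold and 11.2-fold, and those of F7 at least 5.24-fold and 7.96-fold. Apart from that of the first F7 probe, which rests on its own control signal, the bounds rest on a single dim probe, whose level of −6.53 was followed by −5.90 for the next.

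F10 stood just past the threshold, at 2.07-fold over the mean of its probes, because the first probe was 4.09-fold higher in the BHPF uterus and the second 1.04-fold higher. It lost this call with the 50th percentile in place of the 75th (a log2 ratio of 0.97) and with the brightest probe alone (0.06). F5 stood below it at 1.19-fold, with 0.24 and 0.26 on the log2 scale for its probes, both above the spot SD of 0.138. Before the percentile shift its intensities were nearly equal in control and BHPF uterus, at 18590 and 18630 in the first probe and 2362 and 2405 in the second. The ratio of F5 thus rests mainly on the 75th percentiles of 5336 and 4534, whose error the spot SD does not cover. With normexp background correction it was 0.135.

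In the ovary, 7 members could be compared and 0 differed by 2-fold in either direction, where 0.562% of all 16901 genes compared were higher by this much after BHPF and 0.71% lower. The log2 ratios were 0.09 in F2, −0.07 in F5, 0.01 in Fgb, 0.13 in Fgg and 0.21 in Plg. F10 had −0.23, made up of −0.53 in its first probe and 0.07 in its second. F7 was at least 1.75-fold lower in the BHPF ovary, where it was not well above background. F2, F5, Fgb and Fgg differed by less than the spot SD of 0.132, and Plg by more. Fga, F9 and F11 were too dim in both ovary pools to be compared.

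In the liver, where the members are highest, 0 of 10 differed by 2-fold, where 3.53% of all 15575 genes compared were higher by this much after BHPF and 1.64% lower. Their log2 ratios had a median of −0.09 and ran from 0.13 in F10 (−0.02 and 0.28 in its probes) to −0.39 in F11. Fga (−0.24) and Fgb (−0.19) were also lower by more than the spot SD of 0.136, whereas Fgg had 0.07. F2 (−0.09), F9 (−0.11), Plg (−0.08), F5 (0.01) and F7 (0.00) differed by less than it. 

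To set the uterus change against the liver level, the linear signal of the BHPF uterus minus that of the control uterus was expressed as a percent of the same probe's control liver signal. The members spanned 22.0-fold in this measure, from 0.351% in F9 to 7.73% in Fgb, with a median of 2.21%. Fgb (7.73%), Fgg (6.43%), Plg (6.13%) and F2 (5.51%) lay together at the upper end. F11 (0.806%), F7 (0.563%), Fga (0.557%) and F9 (0.351%) lay together at the lower end, and the lowest of the first 4 was 6.83 times the highest of the other 4. By the mean of their probes, F10 (2.89%) and F5 (1.52%) lay within this gap and belong to neither group. Each single-probe value carries the spot error of 3 arrays. That error comes from probes well above background and leaves out the spread between mice and pools, which was not measured. The 2 probes of F7 gave 0.548% and 0.578%, and those of Fga 0.410% and 0.703%. F10 had 2.59% and 3.19% by its probes, and the second of these rests on a difference of 0.06 log2 units, within the spot SD. F5 had 2.33% and 0.708%. 

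The fibrinogen chains were thus divided, with Fgb and Fgg about alike and Fga lower. In the BHPF uterus Fgb and Fgg stood at 8.07% and 6.63% of their control liver signal and the Fga probes at 0.426% and 0.733%. In the control ovary the corresponding values were 0.836% and 0.720% in Fgb and Fgg, against 0.0428% and 0.0271% in the Fga probes, which were not well above background there. The grouping into upper and lower members was made after the values were seen and was given no test.

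**Figure D2:**
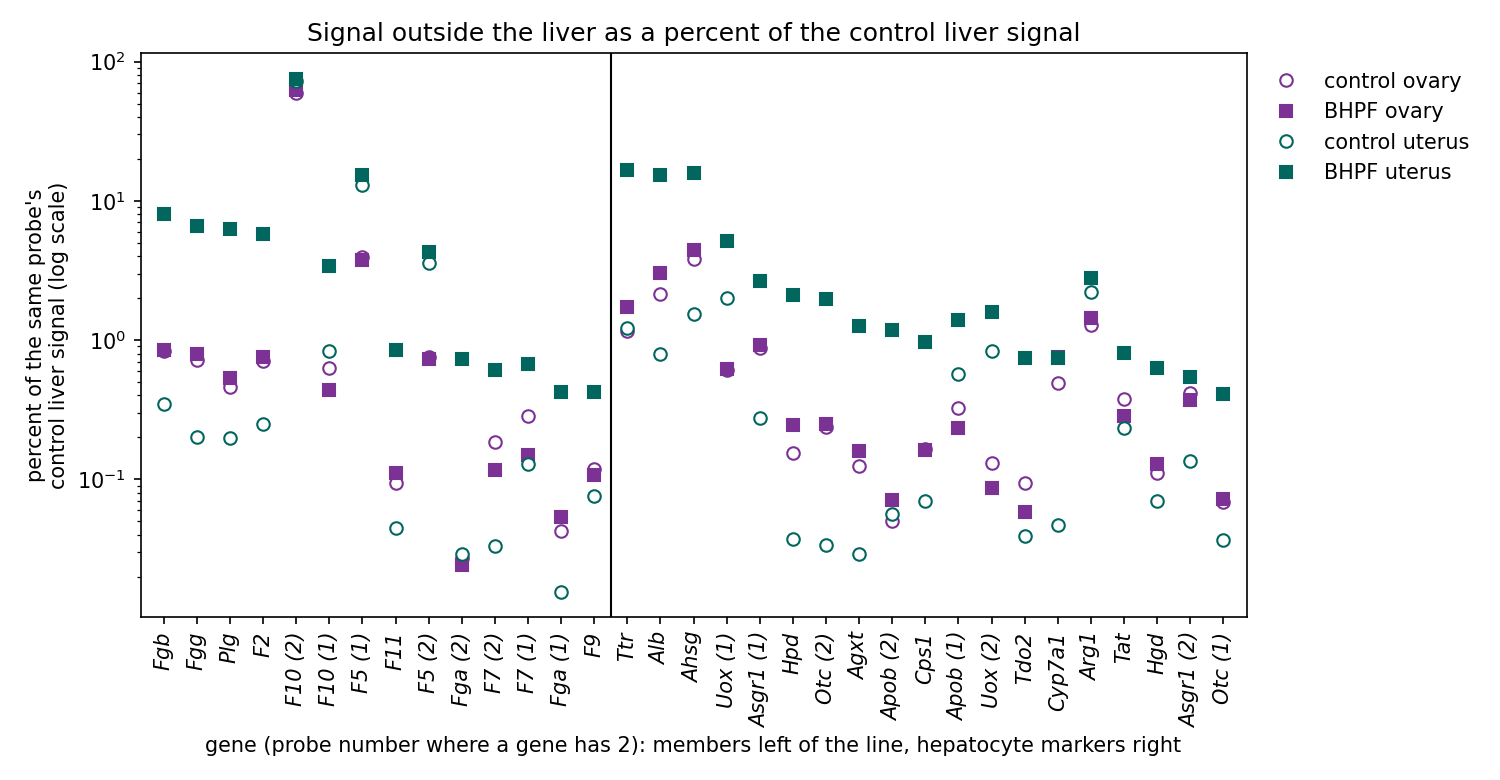
Signal on the ovary (purple) and uterus (green) arrays as a percent of the same probe's control liver signal, on a log axis, with open circles for control and squares for BHPF, and with 14 probes of the members left of the line and 19 of hepatocyte markers right of it. The BHPF uterus is the highest of the 4 arrays for every probe of a member, and Fgb, Fgg, Plg and F2 lie at 5.76% to 8.07%, while Fga, F7, F9 and F11 lie below 1%.

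Genes of the hepatocyte moved in the uterus beside the members. Of 16 hepatocyte markers, 16 were well above background in the BHPF uterus and 8 in the control uterus, and 15 passed 2-fold upwards, with 3.26 as the median log2 ratio of the list. Their summed level was 8.59 and 8.58 in control and BHPF liver, 2.10 and 2.44 in control and BHPF ovary, and 1.32 in control uterus against 4.74 in BHPF uterus. Alb (albumin, the main plasma protein) had a log2 ratio of 4.28, Ttr (a thyroxine carrier) 3.78, and Hpd (an enzyme of tyrosine breakdown), Cps1 (the first enzyme of the urea cycle) and Agxt (a peroxisomal enzyme of glyoxylate removal) at least 5.84, 3.79 and 4.38. Their part in the members' result was not tested.

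As a percent of control liver, the uterus excess of the markers had a median of 1.20% and ran from 0.560% to 15.6%. The 3 highest were Ttr (15.6%), Alb (14.5%) and Ahsg (14.2%, a plasma glycoprotein also known as fetuin-A), which were picked out after their values were seen. A set of 348 other liver-enriched genes was taken. Each was well above background in control liver, with a level of at least 0 there and at least 64-fold above control ovary. The members had control liver levels of 3.23 to 5.64, so the set was not matched to them in liver level. Of the 348 genes, 296 could be compared in the uterus. The rest were dim on both uterus arrays and left out, whereas a gene above background on 1 array alone entered with a bound. Of the 296 genes, 192 (64.9%) were at least 2-fold higher after BHPF. Their median log2 ratio was 1.87 against 3.42 in the members, with bounds for 101 of the 296 and 4 of the 10. Without the bounds, the medians were 1.08 and 4.53. The excess was taken over all 348 genes, with those dim on both uterus arrays included. It had a median of 0.748%, with 0.358% and 1.57% as quartiles and 3.28% as the 90th percentile. F2, Plg, Fgg and Fgb exceeded 94.0%, 94.5%, 95.1% and 97.1% of the 348 genes, and Fga, F7 and F9 exceeded 39.7%, 40.2% and 24.7%. F11 lay near the middle, above 51.7%. Fga, Fgb, Fgg, F2, F7, F9, F11 and Plg themselves met the definition, and F5 and F10 did not by the mean of their probes. Control liver exceeded control ovary 25.1-fold and 132-fold in the first and second probes of F5. In those of F10 it did so 159-fold and 1.67-fold.

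The 10 uterus markers, which include the homeobox genes Hoxa10 and Hoxa11 and the oestrogen and progesterone receptors, were all well above background on both uterus arrays, and 0 differed by 2-fold. Their summed level was 5.34 in control uterus and 5.29 in BHPF uterus, against −0.48 and −0.20 in the livers. Myh11, the smooth muscle myosin and the brightest of them, had 3.70 and 3.61 in the uteri. Of 10 ovary markers, 6 were compared in the uterus, and Zp3, an egg coat gene, was at least 2-fold lower there with a bound of −1.70. Foxl2, listed as an ovary marker, had 1.27 in control liver and 0.71 in control ovary, so its probe does not set the tissues apart. Summed over the list, the ovary markers had 5.76 and 5.80 in the ovaries and at most 1.94 on the other arrays.

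Platelets carry clotting proteins, and Kupffer cells are the macrophages of the liver. In the uterus 0 of the 7 platelet markers compared differed by 2-fold, and the summed level of the list was 1.47 and 1.54 in control and BHPF. Of 8 macrophage markers compared, Clec4f and Vsig4 were higher by 1.21 and 1.04 on the log2 scale. The other 6, with C1qa the brightest at 0.08 and Marco the lowest at −0.38, differed by less than 2-fold. Of the 8 log2 ratios, 5 lay above 0 and 3 below. The summed macrophage level was 3.40 and 3.35. In the liver 5 of 11 platelet markers (Pf4, Ppbp, Gp1ba, Gp6 and Gp9) and 2 of 9 macrophage markers (Adgre1 and Marco) were at least 2-fold lower after BHPF and the macrophage marker Cd163 was higher, and the summed levels of the lists went from 3.74 to 2.93 and from 5.88 to 5.56. Their part in the small liver differences of the members was not tested.

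The remaining genes of the clotting system were taken by role. Among 9 contact and other factors, 5 were at least 2-fold higher in the BHPF uterus and 0 lower. They were F12, which starts the contact pathway (a bound of 3.82 on the log2 scale), F13b, the carrier subunit of factor XIII (a bound of 3.03), the kininogens Kng1 and Kng2 (3.27 and 3.43) and Klkb1, plasma prekallikrein (2.22). All of these had control liver levels above 4. F3, tissue factor, was the brightest of the list in the uterus, at 1.93 in control and 2.36 in BHPF, and its control liver level was −1.09.

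Among 11 anticoagulants, 10 were compared, 4 were at least 2-fold higher and 0 lower. The 4 were the liver-made inhibitors Serpinc1, antithrombin (3.12), Serpind1, heparin cofactor II (2.68), and Serpina10 (2.48), and Proc, protein C (3.10). Thbd, the endothelial receptor thrombomodulin and the brightest of the list in the uterus, had 2.40 in control and 2.45 in BHPF uterus against −0.52 in control liver. Among 10 genes of fibrinolysis, 3 were higher. They were Cpb2, a carboxypeptidase that protects fibrin (a bound of 4.72), Hrg, a plasma protein that binds plasminogen (4.31), and Serpinf2, the plasmin inhibitor (a bound of 3.45). Plat, the tissue activator of plasminogen, had 2.53 and 2.68 in the uteri and −3.81 in control liver. 

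The receptors and the synthesis machinery gave no such difference. Of 4 thrombin receptors, 3 were compared and 0 passed 2-fold, and F2r had 1.38 and 1.61 in control and BHPF uterus. Of 6 genes of the vitamin K cycle and factor secretion, which were measured above background in all 3 tissues, 0 passed 2-fold and the log2 ratios ran from −0.20 to 0.17. Vkorc1, the enzyme that warfarin blocks, had 2.74 and 2.79. Of 15 regulators of liver genes, 14 were compared and 2 were higher, namely Hnf4a with a bound of 3.62 and Foxa3 with a bound of 1.91. The interleukin-6 receptor subunit Il6st had 2.75 and 2.67. In the ovary 0 genes of these 6 lists passed 2-fold. In the liver the anticoagulants Procr (−1.38) and Serpina5 (−1.09) were at least 2-fold lower after BHPF. The genes named here for the liver were picked out after their values were seen.

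**Figure D3:**
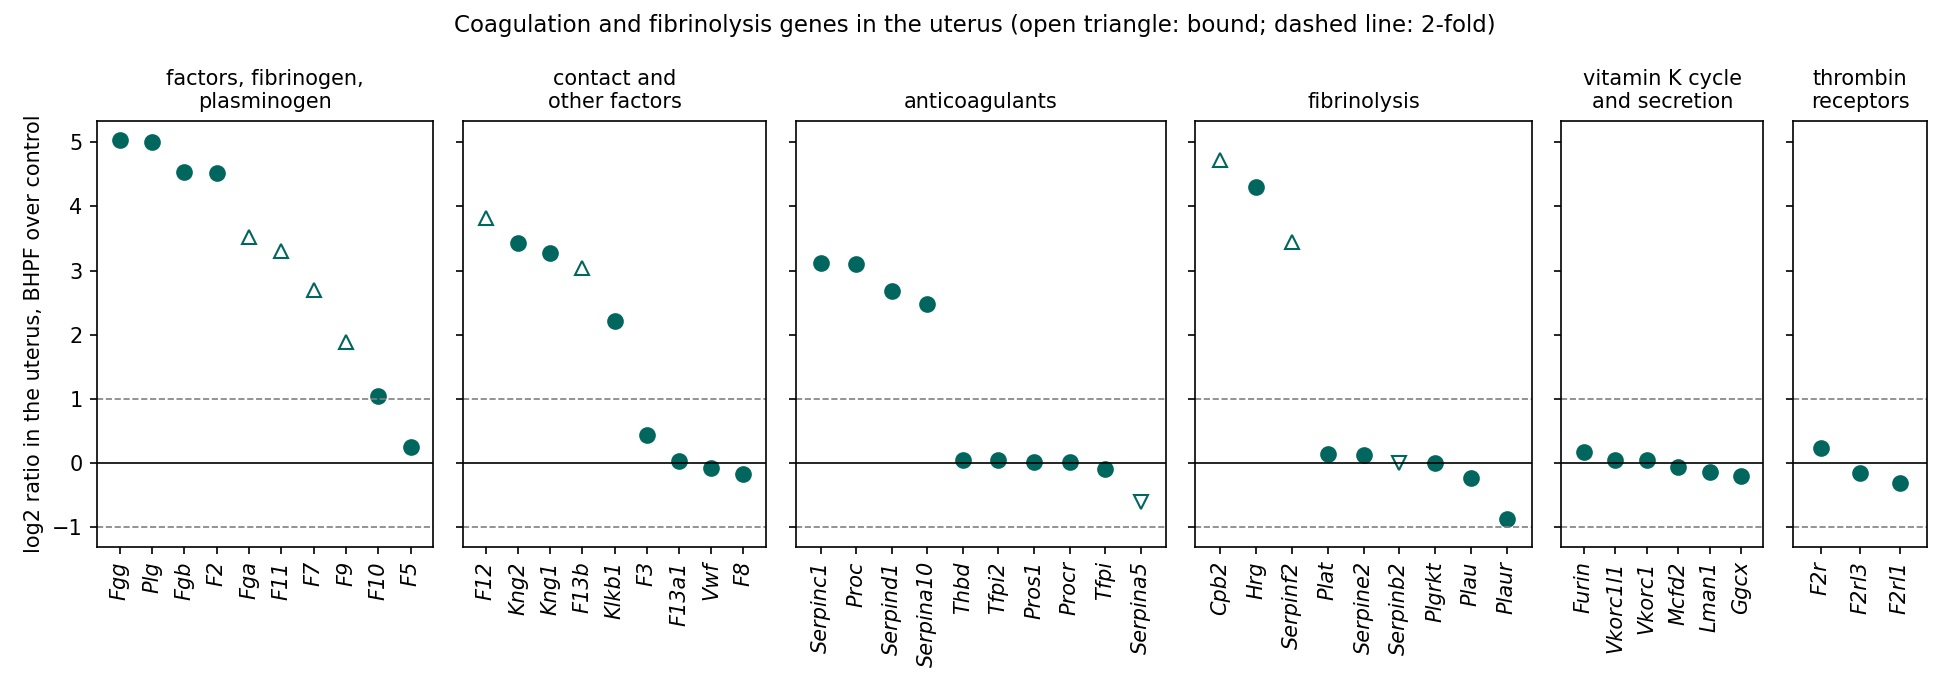
Log2 ratio of BHPF over control uterus for genes of 6 lists, with open triangles for bounds and dashed lines at 2-fold. The 9 members past 2-fold lie between 1.05 and 5.03 and F5 at 0.25, whereas the vitamin K and receptor lists lie between −0.31 and 0.23.

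The position of a member in the BHPF uterus was then set beside its position in the control ovary, a pair of tissues measured on separate arrays. Over 14 probes, the control ovary minus control liver difference and the BHPF uterus minus BHPF liver difference gave Pearson's r = 0.90 and Spearman's rho = 0.85, and r = 0.85 without the second F10 probe. The same over 20 probes of hepatocyte markers was r = 0.76 and rho = 0.70, and over 416 probes of the liver-enriched genes r = 0.49 and rho = 0.53. The liver-enriched genes were chosen by the difference of control liver from control ovary, which narrows its range. Their lower r can therefore not be set against the other values. All of these correlations are descriptions across probes, which are not replicates. Both differences subtract a liver signal of the same probe, 4 of the genes enter with 2 probes, and dim probes level off near background. Fgb, Fgg, F2 and Plg, which had 0.461% to 0.836% of their liver signal in control ovary, were those with 5.51% or more in the uterus excess. The ovary value alone did not mark them out. The second F5 probe (0.756%) and the first F10 probe (0.628%) lay in the same ovary range, with an excess of 0.708% and 2.59%. The first F5 probe had 3.98% in control ovary and an excess of 2.33%. F11, F9 and Fga were not well above background in the control ovary.

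**Figure D4:**
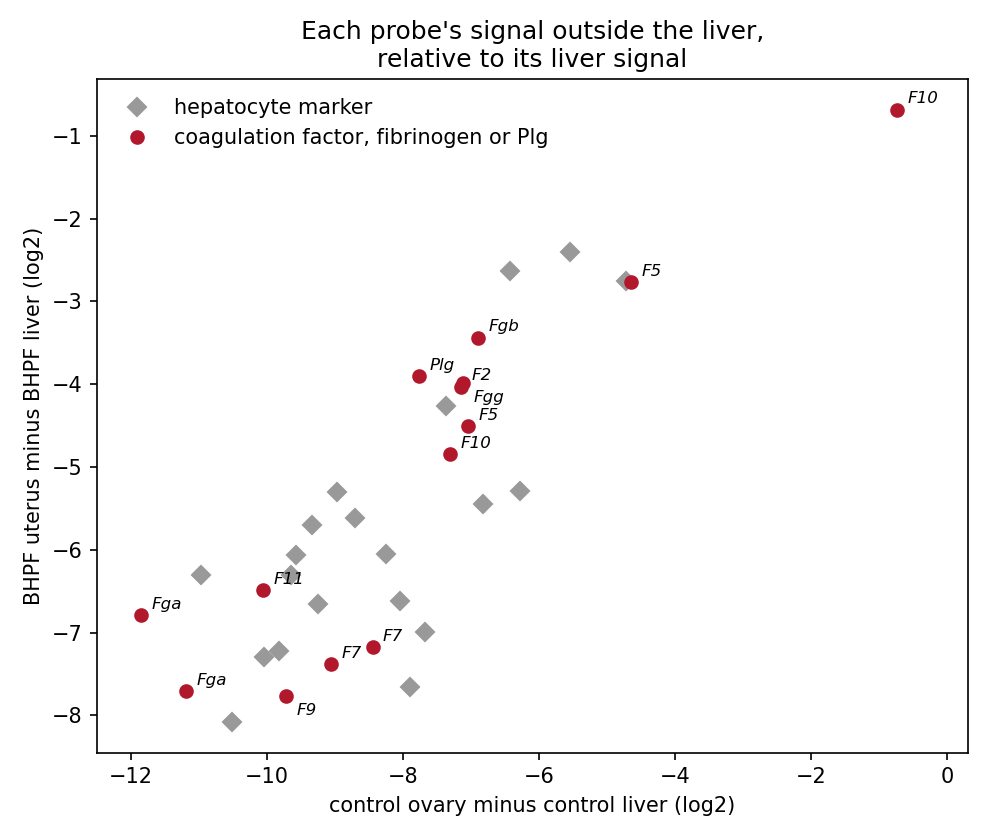
Each probe's log2 difference of control ovary from control liver (horizontal) and of BHPF uterus from BHPF liver (vertical), with circles for 14 probes of the members and diamonds for 20 probes of hepatocyte markers. The members run from Fga and F9 at the lower left through F2, Fgb, Fgg and Plg to the second F10 probe at the upper right (r = 0.90).

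Among 13940 genes outside the lists that were well above background on both liver arrays and the BHPF uterus, 5 had levels relative to control liver closest to those of Fgb over the other 5 arrays. They were Fabp1, the fatty acid binding protein of the liver, with a root mean square difference of 0.23 log2 units, Serpina1d, an α1-antitrypsin (0.23), Pzp, a plasma protease inhibitor (0.25), Ambp, the precursor of α1-microglobulin and bikunin (0.28), and Ces1c, a carboxylesterase of plasma (0.32). Their log2 ratios in the uterus were 4.86, 4.52, 4.29, 4.62 and 5.19. Both uterus arrays entered the choice, so the nearness of these ratios to that of Fgb follows from it.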

How the data were processed

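Per the labels and methods, total RNA of 3 mice was pooled for each of 6 groups and hybridised to Agilent mouse arrays of 60-mer probes. The authors deposited scanner files of spot intensity, extracted per the file headers with Feature Extraction 11.5.1.1 (the labels name 9.1), and a table of log2 values made in GeneSpring by log transformation and a percentile shift, in which the uterus columns are exchanged against the scanner files. Here the processed intensity was used. Outlier spots were left out, spots of a probe averaged, and the 75th percentile over 55681 probes subtracted on the log2 scale. Symbols came from RefSeq through each probe's transcript, for 26762 probes. A gene was compared in a tissue where 1 array or both measured it well above background, and with 1 only, the ratio is a bound. With 1 array a group no test was run, and a gene was called by a 2-fold difference. The number of arrays limits the precision. The members and lists were chosen with earlier results of these data known. All members are named, and from each other list up to 6 genes, those at least 2-fold different in the uterus by size and the brightest. Cd68 of the macrophage list was not matched. Values of some listed genes are not reported here, though they enter the counts. The code was tested on simulated data. Alternatives were limma 3.58.1 normexp with an offset of 50, other percentiles, quantile normalisation, the authors' table, other filters and thresholds, and the brightest probe. Python 3.11.15 and R 4.3.3 were used.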

Additional observations from a re-analysis of the deposited data

Results flagged for a closer look

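For 5 members the BHPF ratio had opposite signs in a pair of tissues, each beyond the spot SD of that tissue. The log2 ratio in the uterus exceeded that in the liver by 4.73 in Fgb (4.54 and −0.19), by 3.76 in Fga (a bound of 3.52, and −0.24) and by 3.70 in F11 (a bound of 3.31, and −0.39). It exceeded that in the ovary by 3.50 in F7 (bounds of 2.69 and −0.81) and by 1.28 in F10 (1.05 and −0.23). In F10 only the first probe had opposite signs (2.03 and −0.53), and the second had 0.06 and 0.07, within the spot SD. With 1 array a group the difference between tissues was not tested. Each of the 5 members turns its direction in the uterus under the headings of the authors' table.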

How the results depend on the processing

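The count of 9 members at least 2-fold higher in the uterus turned to 9 lower, their median from 3.42 to −2.79 and F10 from 1.05 to −1.05, when the authors' table was read as headed. With its uterus columns exchanged, chosen after seeing the data, the count was 9 and the median 2.79, since the dimmest probe behind the bounds has no value there. The count was 5 of 6 when both uterus arrays had to be well above background, 7 at 4-fold, and 8 with the 50th percentile or the brightest probe, where F10 was below 2-fold. It was 9, with the same median, when bounds were averaged over probes, as printed for F7, instead of taken from the gene's mean level, a choice made after seeing the data. The uterus median was 2.68 with normexp, 4.38 with own signals in place of bounds or with no filter, and 4.53 over the 6 members above background on both arrays. F10 was 0.97 with the 50th percentile, 0.06 with its brightest probe and 2.03 without that probe, the latter chosen after seeing the data. The liver median was −0.40 with the 50th percentile, which moved the median of all genes to −0.29. The median uterus excess of 2.21% of liver was 1.41% with normexp, 0.623% with the 50th percentile, 3.00% with the 75th percentile over probes above background on all arrays, 2.76% with the brightest probe and 5.82% over members above background on both arrays. In every setting over all 10 members, Fgb, Fgg, F2 and Plg were at 3.50% or more and F7, F9, F11 and Fga at 1.12% or less. This split was chosen after the values were seen and leaves out F5 and F10. The counts of 0 in liver and ovary held under all 10 alternatives each. No paired analysis was possible because each group is 1 array, for which reason no replicate could be left out either.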
